A study of Homo sapiens with 6 samples.

Results

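The genes described here are the 49 listed genes of the amino acid response and of tRNA charging, taken by gene symbol from the 20667 symbols measured in each library. They form 2 lists that are kept apart: 20 cytosolic aminoacyl-tRNA synthetase genes, and 29 genes of the ATF4 pathway that comprise its kinases, transcription factors, feedback genes, enzymes and transporters. The libraries come from U2932 cells, a line established from a diffuse large B cell lymphoma of the activated B cell type (ABC-DLBCL). All cells carried a lentiviral pLKO.1 construct with a puromycin resistance cassette and tGFP, and grew in Iscove's DMEM with FBS and antibiotics. In 3 libraries the construct expressed a MISSION shRNA against ROCK2, a serine-threonine kinase (genotype ROCK2 knockdown, ROCK2 KD), and in 3 it expressed a scrambled shRNA (genotype control, Scr shRNA). The libraries of both groups are numbered 1, 2 and 3, and ROCK2 KD was compared with Scr shRNA within each number to ask which transcripts differ when ROCK2 is silenced. Nothing in the sources used here says that the libraries of a group came from separate infections or cultures, so the p-values measure the spread between these libraries, which may be technical.

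Aminoacyl-tRNA synthetases each join 1 amino acid to its tRNA. When an amino acid runs short, uncharged tRNA activates the kinase GCN2 (EIF2AK4), which phosphorylates eIF2α, slows translation of most mRNAs and favours translation of the mRNA for the transcription factor ATF4. The kinases PERK (EIF2AK3), which responds to unfolded protein in the endoplasmic reticulum, and HRI (EIF2AK1), which responds to low heme and other stress, reach ATF4 by the same step. ATF4 and its C/EBP partners bind C/EBP-ATF response elements and raise transcription of genes for amino acid synthesis, amino acid uptake, many cytosolic synthetases, and feedback proteins such as TRIB3 and GADD34.

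To show which members carry letters of such an element near the start site, RefSeq promoter windows (250 bases before to 50 bases after the start site, 300 in all, from the GRCh38 table) were searched on both strands for TGATGCAA and for TGATGNAA, a search that includes the former. Of 49 members, 40 had a window. TGATGCAA was found in 6 of 16 synthetase windows (CARS, IARS, MARS, AARS, NARS and TARS) and in 1 of 24 ATF4 pathway windows (CHAC1), against 252 of 27305 windows of all genes (0.923%). TGATGNAA was found in 6 of 16 synthetase windows and 5 of 24 ATF4 pathway windows, against 3.67% of all windows, with ATF3, ASNS, SLC3A2 and SLC38A1 added. The 30 bases around the motif are shown for the 7 members with TGATGCAA and for ASNS, each read 5′ to 3′ on the gene's strand and placed in GRCh37 (hg19) by exact match, with the motif or its reverse complement in capitals.
CARS, chr11:3078637-3078666, minus strand: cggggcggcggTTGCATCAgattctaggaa
IARS, chr9:95055974-95056003, minus strand: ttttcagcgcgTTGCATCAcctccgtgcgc
MARS, chr12:57881836-57881865, plus strand: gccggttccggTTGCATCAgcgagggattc
AARS, chr16:70323578-70323607, minus strand: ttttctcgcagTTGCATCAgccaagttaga
NARS, chr18:55289036-55289065, minus strand: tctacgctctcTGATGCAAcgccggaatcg
TARS, chr5:33441062-33441091, plus strand: gcgcctttcgaTTGCATCAgctggtccagc
CHAC1, chr15:41245449-41245478, plus strand: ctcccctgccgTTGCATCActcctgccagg
ASNS, chr7:97501770-97501799, minus strand: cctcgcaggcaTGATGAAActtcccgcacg
Counted in bases from the start site, the motif lay at -2 in CARS, -4 in MARS, -13 in IARS, -68 in ASNS, -187 in AARS and -209 in CHAC1, and past the start site at 3 in TARS and 15 in NARS. A match describes these letters only, and no binding was measured here.

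FPKM are fragments per length of transcript and per total of mapped fragments. The FPKM of a library summed to between 208289 and 217309 in the replicate 1 libraries and between 438262 and 480612 in the other 4, so each library was divided by a scale factor (0.682 to 1.24), and levels are given as scaled FPKM. The relative depth, read from the smallest values of each library, was 72.2% to 100% of that of the deepest, and the files give no read number behind a value. This depth is a rough estimate, since 54.48% to 58.64% of the ratios of low values lay near ratios of small whole numbers. All 10 B cell markers listed were measured at an FPKM of 1 or more in at least 3 libraries, while 0 of 8 T cell markers, 0 of 8 myeloid markers and 2 of 8 epithelial, fibroblast or 293T markers were. In bulk RNA, fewer cells of a kind and less RNA per cell cannot be told apart. ROCK2 had a scaled FPKM of 4.03, 4.32 and 1.06 in ROCK2 KD replicates 1, 2 and 3, against 6.34, 5.83 and 4.91 in Scr shRNA. It was lower in all 3 pairs, with a log2 fold change of -0.81 ± 0.22 (SE, limma, adjusted p = 0.811) that became -0.44 without replicate 3, while ROCK1 stood at 11.9 to 13.2 in ROCK2 KD and 12.4 to 12.7 in Scr shRNA.

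No synthetase and no ATF4 pathway gene passed the test between ROCK2 KD and Scr shRNA. The test was limma on log2(scaled FPKM + 1) with the replicate number as a block, over the 10526 genes whose FPKM reached 1 in 3 or more libraries, and on this scale fold changes of low genes come out too small. It called 0 of 20 synthetases and 0 of the 28 ATF4 pathway genes that passed the filter, beside 0% of all genes tested, where the smallest adjusted p was 0.811. Without adjustment, p was under 0.05 for 1 synthetase higher in ROCK2 KD (WARS) and 2 ATF4 pathway genes lower (ATF4 and CHAC1), beside 325 genes (3.09% of all tested) higher and 242 (2.3%) lower. The 95% confidence intervals of all 48 members tested lay within a 2-fold change in either direction, from -0.40 (FARSA) to 0.59 (WARS) on the log2 scale among synthetases and from -0.68 (CHAC1) to 0.63 (SLC38A2) in the ATF4 pathway. In data simulated with the same spread over 10526 genes, changes of 1 on the log2 scale were called in a median of 61.75% of cases and changes of 0.5 in 0%.

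The synthetases centred on no difference between ROCK2 KD and Scr shRNA. Their median log2 fold change was -0.012, with 8 genes above 0 and 12 below, against a median of -0.0043 over all genes tested. Pair by pair the median was -0.038, 0.10 and -0.14, and ROCK2 KD was the higher library for 8, 16 and 4 of the 20 genes, so the pairs did not share a direction. Differences had the same sign in all 3 pairs for 2 higher genes (WARS and TARS) and 2 lower ones (CARS and AARS), where 12.7% of all genes tested were higher in all pairs and 12.3% lower.

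The ATF4 pathway genes had a median log2 fold change of -0.057, with 12 genes above 0 and 16 below, and the median was -0.018 without replicate 3. Their pair medians were -0.12, 0.032 and -0.11, and ROCK2 KD was the higher library for 10, 17 and 9 of 28 genes. EIF2AK1 and ALDH18A1 were higher in all 3 pairs, beside 12.7% of all genes tested. ATF4, CHAC1 and CEBPB were lower in all 3, beside 12.3%. All 6 transcription factors had fold changes below 0 (median -0.16), as did 3 of 5 feedback and stress genes (median -0.11), while all 3 kinases were above 0 (median 0.064), and none of these 14 genes passed the test. Of all 10526 genes, 5400 were below 0, and the signs of ATF3, CEBPG, DDIT4, PPP1R15A, SESN2, EIF2AK3 and EIF2AK4 turned when 1 replicate number was left out.

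The plot of pair differences shows each of these genes.

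**Figure D1:**
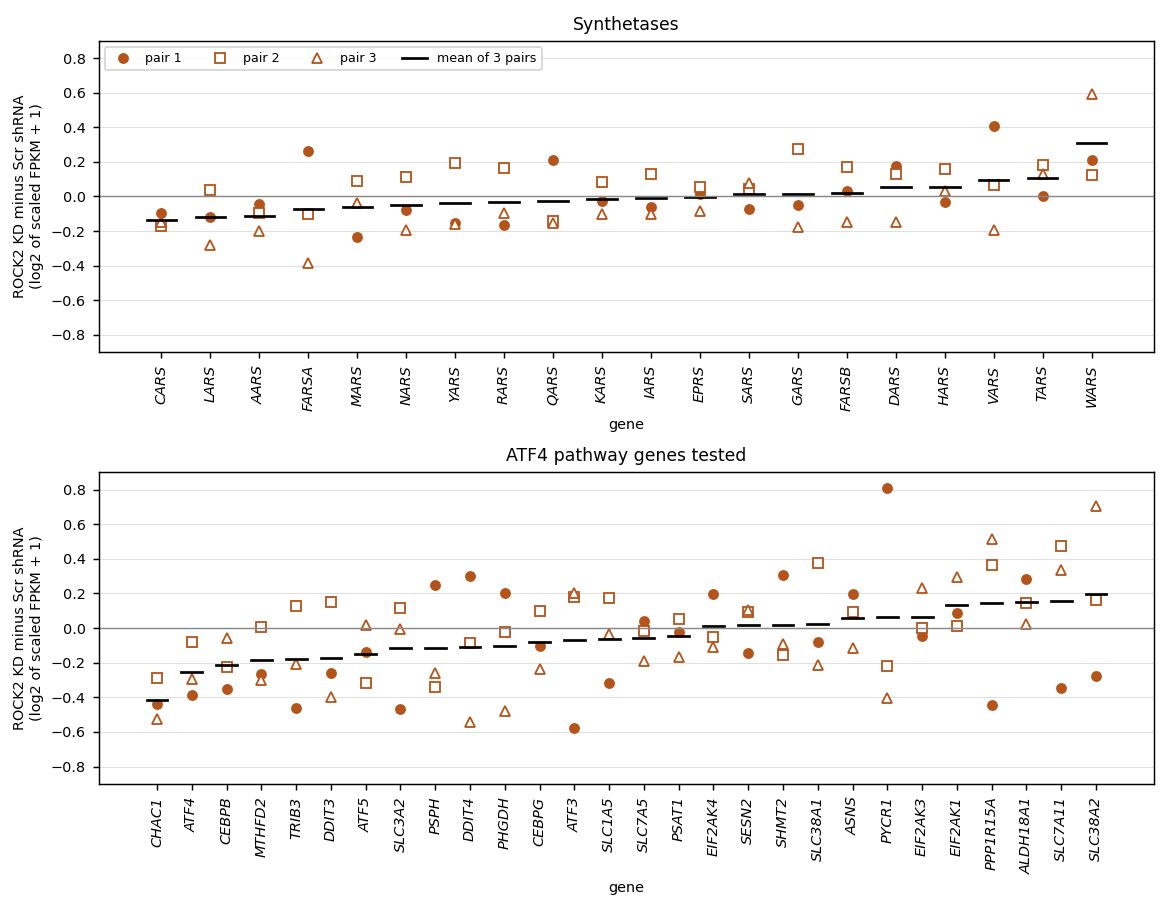
Difference between ROCK2 KD and Scr shRNA in each pair of libraries with the same number (log2 of scaled FPKM + 1, vertical axis), for the 20 synthetases (top) and the 28 ATF4 pathway genes tested (bottom), ordered by the mean of 3 pairs (black bars). The means run from -0.14 (CARS) to 0.31 (WARS) among synthetases and from -0.42 (CHAC1) to 0.20 (SLC38A2) in the ATF4 pathway, and the symbols of most genes fall on both sides of 0.

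Many members differed between the replicate numbers, which both groups share. In the same fit as above, the F-test of replicate number called 11 of 20 synthetases and 19 of 28 ATF4 pathway genes (67.9%), beside 48.7% of all genes tested. Without scaling it called 18, 20 and 77.1% in turn, and without replicate 1 it called 1, 3 and 5.4%. For the ATF4 pathway the replicate 1 libraries of both groups stood apart. Both lay above the other 4 libraries for 20 of 28 genes (71.4%), against 29.7% of all genes tested, and both lay below them for 3 genes, against 30% of all. The difference of replicate 1 from the mean of replicates 2 and 3 was averaged over both groups. It was at least 2-fold upward for 14 of the 28 (50%), beside 5.92% of all genes tested. For 0 of the 28 replicate 1 was 2-fold lower, beside 4.23% of all. This contrast of replicate 1 with the others was chosen after the values were seen, while the F-test of replicate number was planned.

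The 3 kinases upstream of ATF4 differed little between libraries, though both replicate 1 libraries lay above the other 4 for EIF2AK3 and EIF2AK4. EIF2AK1 was measured at a scaled FPKM of 39.6, 36.8 and 41.1 in ROCK2 KD replicates 1, 2 and 3, and at 37.2, 36.5 and 33.3 in Scr shRNA. EIF2AK3 was measured at 9.13, 7.88 and 9.06 in ROCK2 KD and 9.44, 7.87 and 7.55 in Scr shRNA. EIF2AK4 was the lowest of the 3, at 7.24, 5.70 and 5.35 in ROCK2 KD and 6.19, 5.94 and 5.85 in Scr shRNA. None of them was called by either test, with log2 fold changes between ROCK2 KD and Scr shRNA of 0.13 ± 0.10, 0.064 ± 0.11 and 0.012 ± 0.12 (SE, 3 pairs) and adjusted p of 0.380 to 0.889 between replicate numbers. Kinase activity depends on phosphorylation, which mRNA levels do not measure.

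ATF4 itself had the highest mean level of the list, though ATF5 was above it in ROCK2 KD replicate 1. Its scaled FPKM was 397, 223 and 194 in ROCK2 KD replicates 1, 2 and 3, and 520, 236 and 238 in Scr shRNA. The ROCK2 KD library was the lower of each pair, and the difference did not pass the test (log2 fold change -0.25 ± 0.10, 95% interval -0.49 to -0.021, limma, unadjusted p = 0.0369, adjusted p = 0.905). Both replicate 1 libraries were above the other 4, by 2.04-fold on the log2(scaled FPKM + 1) scale (adjusted p between replicate numbers 0.00152).

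The other 5 transcription factors were also highest in the replicate 1 libraries. ATF5, a bZIP factor translated under the same control as ATF4, had 462, 101 and 186 scaled FPKM in ROCK2 KD and 509, 127 and 184 in Scr shRNA. DDIT3 (CHOP), which drives apoptosis under long stress, had 98.2, 16.6 and 11.9 in ROCK2 KD and 118, 14.9 and 16.0 in Scr shRNA. ATF3, an early stress-induced repressor and activator, had 30.1, 1.15 and 2.38 in ROCK2 KD and 45.4, 0.903 and 1.94 in Scr shRNA. For each of them both replicate 1 libraries lay far above the rest, and ATF3 had the largest difference of all members, at 3.91 on the log2 scale (15.1-fold). CEBPB, a C/EBP partner of ATF4 and CHOP, had 8.84, 1.28 and 2.23 in ROCK2 KD and 11.5, 1.67 and 2.36 in Scr shRNA. CEBPG, another C/EBP partner, had 24.9, 12.2 and 9.66 in ROCK2 KD and 26.9, 11.4 and 11.6 in Scr shRNA. All 6 factors passed the test between replicate numbers (adjusted p 0.000120 to 0.00162) and were at least 2-fold higher in replicate 1, with a median difference of 1.85, and CEBPB was lower in ROCK2 KD in all 3 pairs (-0.21 ± 0.12, limma, adjusted p = 0.957).

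DDIT3 (chr12:57910371-57915520, minus strand) and MARS (chr12:57869228-57911352, plus strand) overlap at their ends over 982 bases, and without strand their reads there cannot be told apart. In all, 12 of 49 members are overlapped by a protein-coding gene on the opposite strand, among them WARS, AARS, KARS, EIF2AK1 and ATF5, and strand was not stated for these libraries. A further kind of overlap, on the same strand, touches DDIT3 (a coding gene without a symbol, 2769 bases), PYCR1 (MYADML2, 2768 bases) and HARS (DND1, 542 bases), whose reads strand would not separate.

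The 5 feedback and stress genes differed most between replicate numbers as a group, with a median of 2.68 on the log2 scale. CHAC1, which breaks down glutathione and lies downstream of ATF4 and CHOP, had 27.7, 1.94 and 3.76 scaled FPKM in ROCK2 KD and 37.8, 2.58 and 5.85 in Scr shRNA. The replicate 1 libraries were 7.76-fold above the others on this scale (adjusted p = 8.11e-05, limma F-test). CHAC1 was also the member with the lowest p between ROCK2 KD and Scr shRNA: it was lower in all 3 pairs, by -0.44, -0.29 and -0.53, with a log2 fold change of -0.42 ± 0.11 (95% interval -0.68 to -0.16, limma, unadjusted p = 0.00711, adjusted p = 0.811).

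TRIB3, a pseudokinase that dampens ATF4, had 86.1, 11.6 and 15.1 scaled FPKM in ROCK2 KD and 119, 10.5 and 17.6 in Scr shRNA. DDIT4 (REDD1), an inhibitor of mTORC1, had 84.4, 7.03 and 13.3 in ROCK2 KD and 68.2, 7.54 and 19.8 in Scr shRNA. SESN2, a leucine sensor that restrains mTORC1, had 24.0, 6.01 and 7.62 in ROCK2 KD and 26.6, 5.58 and 7.03 in Scr shRNA. In each gene the replicate 1 libraries were the highest of both groups, by 7.06-, 6.43- and 3.50-fold. PPP1R15A (GADD34), the phosphatase subunit that removes phosphate from eIF2α, had 79.4, 22.7 and 22.3 in ROCK2 KD and 108, 17.4 and 15.3 in Scr shRNA. It was 4.64-fold higher in replicate 1, and between ROCK2 KD and Scr shRNA its pairs differed in sign (-0.44, 0.37 and 0.52).

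**Figure D2:**
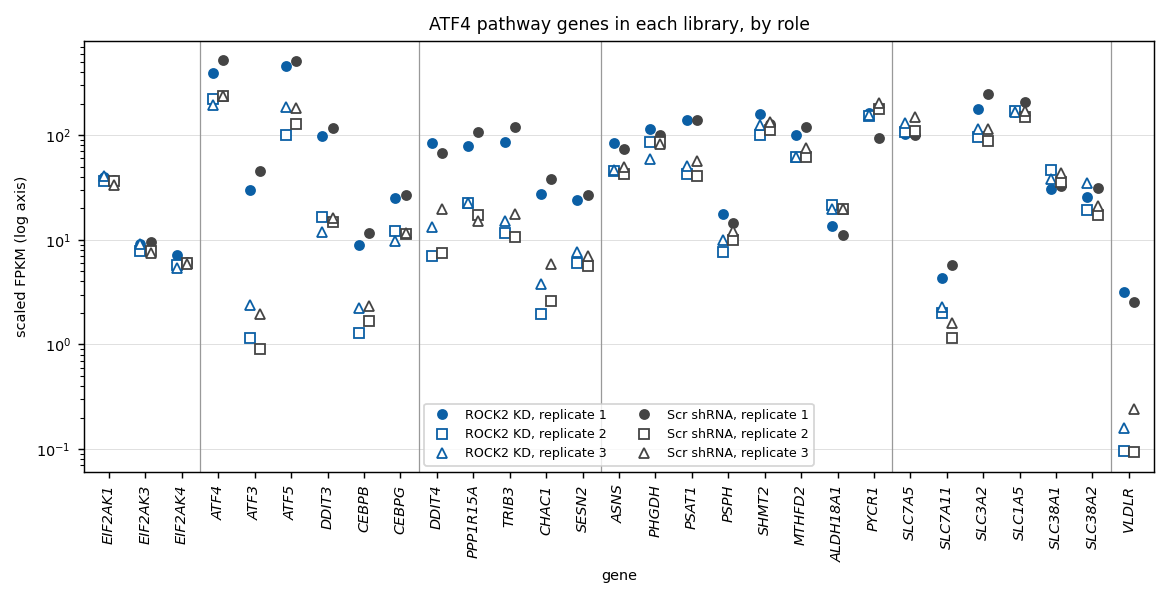
Scaled FPKM (log axis) of the 29 ATF4 pathway genes in each library, with ROCK2 KD in blue, Scr shRNA in grey and replicate 1 as filled circles, and vertical lines between kinases, transcription factors, feedback and stress genes, enzymes, transporters and VLDLR. For the 6 transcription factors and the 5 feedback and stress genes both filled circles lie above the 4 open symbols, while for the 3 kinases the symbols lie close together, with the filled circles narrowly highest for EIF2AK3 and EIF2AK4.

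The enzymes showed the pattern in part. PSAT1, of serine synthesis, had 139, 42.7 and 50.6 scaled FPKM in ROCK2 KD and 141, 41.2 and 56.8 in Scr shRNA. ASNS, asparagine synthetase, had 84.0, 45.2 and 46.0 in ROCK2 KD and 73.1, 42.3 and 49.9 in Scr shRNA. Both were higher in replicate 1 of both groups, by 2.91- and 1.70-fold, and both passed the test between replicate numbers (adjusted p = 0.000335 and 0.005004). PHGDH, which makes the first step of serine synthesis, had 115, 85.5 and 59.3 in ROCK2 KD and 99.7, 86.9 and 83.2 in Scr shRNA, and did not pass (adjusted p = 0.0593). PSPH and MTHFD2, of serine synthesis and of mitochondrial folate metabolism, passed with differences of 0.65 and 0.74, and SHMT2 did not (0.28, adjusted p = 0.0935).

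The 2 proline enzymes of the list went the other way or split. ALDH18A1 had 13.7, 21.7 and 19.8 scaled FPKM in ROCK2 KD and 11.04, 19.6 and 19.5 in Scr shRNA, with both replicate 1 libraries below the other 4 (-0.67, adjusted p = 0.00865). It was higher in ROCK2 KD in all 3 pairs without passing the test (0.15 ± 0.11, limma, adjusted p = 0.960). PYCR1, among the 4 most abundant genes of the list, had 164, 152 and 155 in ROCK2 KD and 93.1, 176 and 205 in Scr shRNA. Its replicate 1 libraries did not stand together: the pairs differed by 0.81, -0.22 and -0.40 between ROCK2 KD and Scr shRNA, the widest span of any member.

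Among the transporters, the 2 genes of the cystine exchanger were the ones at least 2-fold higher in replicate 1 on the mean of both groups. SLC7A11, its light chain, had the lowest mean of the ATF4 pathway genes tested, with 4.32, 2.0007 and 2.28 scaled FPKM in ROCK2 KD and 5.77, 1.16 and 1.60 in Scr shRNA. SLC3A2, the heavy chain that it shares with SLC7A5, had 178, 96.2 and 115 in ROCK2 KD and 246, 88.7 and 115 in Scr shRNA. Their differences between replicate 1 and the others were 1.14 and 1.01 (adjusted p = 0.00785 and 0.00389). By group these were 0.76 and 0.75 in ROCK2 KD, short of 2-fold, and 1.51 and 1.27 in Scr shRNA. SLC1A5, a glutamine transporter, had 168, 169 and 166 in ROCK2 KD and 209, 150 and 171 in Scr shRNA, with no difference called (adjusted p = 0.365). SLC7A5, which carries leucine, was lower in both replicate 1 libraries (-0.27) and was called between replicate numbers (adjusted p = 0.0365, limma F-test). Replicate 3 stood further apart, with mean log2 levels of 6.68, 6.77 and 7.12 in replicates 1, 2 and 3. SLC38A1 and SLC38A2, carriers of neutral amino acids, were not called (-0.34 and 0.32). VLDLR, a lipoprotein receptor and reported ATF4 target, reached an FPKM of 1 only in the replicate 1 libraries and did not pass the filter. Its scaled FPKM was 3.17, 0.0967 and 0.158 in ROCK2 KD and 2.56, 0.0932 and 0.243 in Scr shRNA.

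**Figure D3:**
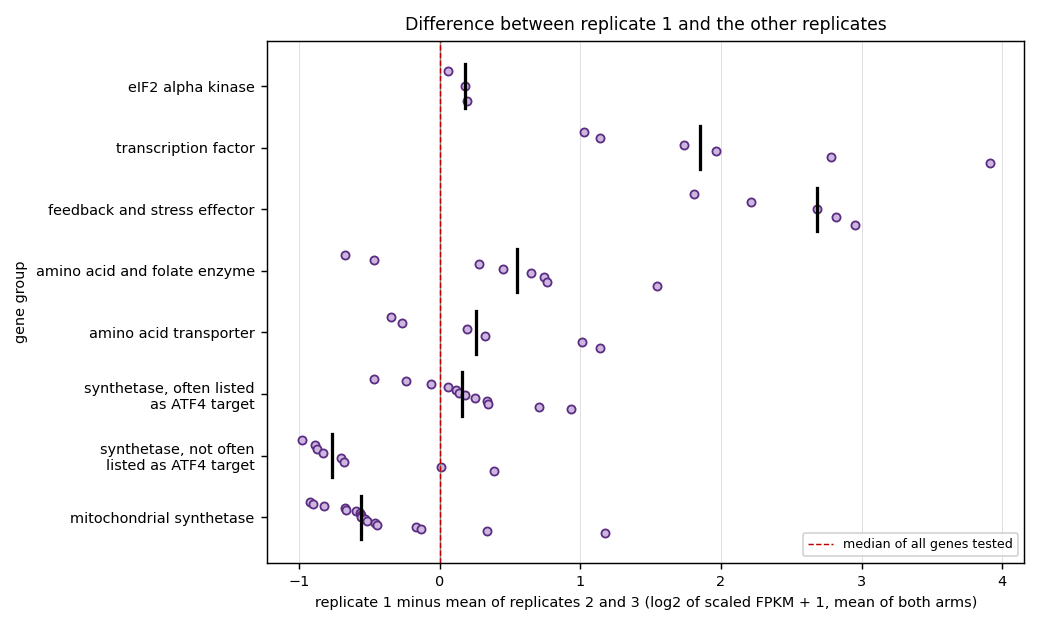
Difference of replicate 1 from the mean of replicates 2 and 3 (log2 of scaled FPKM + 1, mean of both groups) for each gene tested, by group, with black bars at the group medians and a dashed line at the median of all genes tested (0.0060). Transcription factors (median 1.85) and feedback and stress genes (2.68) lie to the right, synthetases not often listed as ATF4 targets (-0.76) and mitochondrial synthetases (-0.55) mostly to the left.

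The synthetase genes were all expressed, and their levels covered a 16.6-fold range. NARS, for asparagine, was the highest, with 316, 258 and 247 scaled FPKM in ROCK2 KD and 333, 238 and 282 in Scr shRNA, and its lowest library was above the highest of the next gene. AARS, for alanine, had 111, 97.7 and 100 in ROCK2 KD and 115, 104 and 115 in Scr shRNA, and was lower in ROCK2 KD in all 3 pairs without passing the test (-0.11 ± 0.09, limma, adjusted p = 0.969). KARS, for lysine, had 69.0, 131 and 118 in ROCK2 KD and 70.2, 123 and 126 in Scr shRNA. The other 18 of 19 pairs of neighbours in the order of levels overlapped across libraries. At the low end, TARS, for threonine, had 27.7, 24.1 and 27.5 in ROCK2 KD and 27.6, 21.1 and 24.98 in Scr shRNA. DARS, for aspartate, had the lowest mean, with 21.4, 16.7 and 13.7 in ROCK2 KD and 18.9, 15.2 and 15.2 in Scr shRNA.

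WARS, for tryptophan, was the synthetase with the largest difference between ROCK2 KD and Scr shRNA. It had 161, 72.9 and 106 scaled FPKM in ROCK2 KD and 138, 66.9 and 69.8 in Scr shRNA. The ROCK2 KD library was the higher of each pair, by 0.21, 0.12 and 0.59, but the 2 groups overlapped and the difference did not pass the test (0.31 ± 0.12, 95% interval 0.029 to 0.59, limma, unadjusted p = 0.0350, adjusted p = 0.904), and came to 0.17 without replicate 3. WARS is also induced by interferon, and it was 1.91-fold higher in replicate 1 (adjusted p between replicate numbers 0.00365). CARS, for cysteine, had 38.4, 22.8 and 22.4 in ROCK2 KD and 41.1, 25.8 and 24.9 in Scr shRNA. Each ROCK2 KD library was below its Scr shRNA partner (-0.14 ± 0.09, limma, adjusted p = 0.960) and replicate 1 was 1.63-fold higher (adjusted p = 0.00498).

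Between replicate numbers the synthetases went both ways, at shares near those of all genes. Both replicate 1 libraries lay above the other 4 for 7 of 20 (CARS, WARS, DARS, GARS, NARS, SARS and TARS) and below them for 8 (QARS, RARS, YARS, EPRS, HARS, KARS, FARSA and FARSB), where all genes tested gave 29.7% and 30%, and the 11 called were 55% of the list, beside 48.7%. Between replicate 1 and the others, 0 of 20 differed by 2-fold or more. FARSA, a subunit of the phenylalanine enzyme, had 50.5, 84.7 and 83.5 scaled FPKM in ROCK2 KD and 41.9, 91.1 and 109 in Scr shRNA. RARS, for arginine, had 30.6, 70.9 and 53.2 in ROCK2 KD and 34.4, 63.1 and 56.9 in Scr shRNA. QARS, for glutamine, had 42.9, 72.9 and 66.7 in ROCK2 KD and 36.9, 80.4 and 74.3 in Scr shRNA. In these 3 genes both replicate 1 libraries were the lowest, with differences of -0.98, -0.88 and -0.87 (adjusted p = 0.00546, 0.00307 and 0.00417). VARS, for valine, followed another order, with 16.8, 30.001 and 6.24 in ROCK2 KD and 12.4, 28.6 and 7.28 in Scr shRNA, so that replicate 2 was the highest and replicate 3 the lowest in both groups (adjusted p = 0.000908). KARS was lower in both replicate 1 libraries too (-0.83, adjusted p = 0.00267). Of the rest, HARS, FARSB and EPRS were lower in replicate 1 (-0.68, -0.70 and -0.47) and SARS was higher (0.34), with adjusted p between replicate numbers of 0.00640, 0.00623, 0.0195 and 0.0348. IARS, LARS, MARS, YARS, AARS, DARS, GARS, NARS and TARS were not called.

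**Figure D4:**
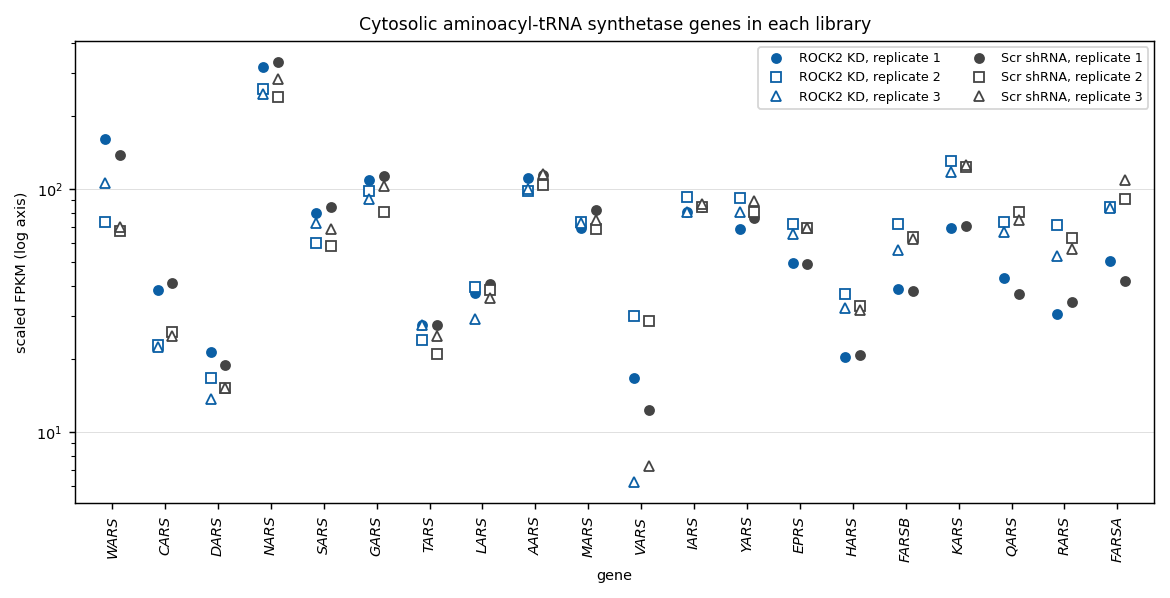
Scaled FPKM (log axis) of the 20 cytosolic synthetase genes in each library, ordered from the largest to the smallest difference of replicate 1 from the others, with ROCK2 KD in blue, Scr shRNA in grey and replicate 1 as filled circles. The filled circles lie above the open symbols at the left (WARS 161 and 138) and below them at the right (FARSA 50.5 and 41.9).

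Synthetases that are often listed as ATF4 targets sat higher in replicate 1 than those that are not. The former 12 (AARS, CARS, EPRS, GARS, IARS, LARS, MARS, NARS, SARS, TARS, WARS and YARS) had a median difference of 0.16, with both replicate 1 libraries above the other 4 for 6 and below for 2, and 4 called between replicate numbers (33.3%). The other 8 had a median of -0.76, with 1 above (DARS) and 6 below, and 7 called (87.5%). Of all genes tested, 48.7% were called, 29.7% lay above and 30% below. By promoter letters, the 6 synthetases with TGATGCAA shown at the start had a median of 0.15, with 3 above the other libraries, 0 below and 1 called (CARS, 16.7%), while the 10 with a window that lacked it had a median of -0.69, with 3 above, 7 below and 9 called (90%), beside the same shares of all genes. In the ATF4 pathway only CHAC1 had TGATGCAA, with a difference of 2.96, and 1 gene cannot show whether that list divides in this way. The 22 ATF4 pathway genes tested with a window that lacked TGATGCAA had a median of 1.02, with 17 above, 3 below and 16 called. These groupings were made with the values known, so they are given as descriptions with no test. The 8 synthetases of the multisynthetase complex, a particle that holds them on 3 scaffold proteins, had a median of -0.27, and the scaffold genes AIMP1, AIMP2 and EEF1E1 had 0.17, -0.20 and -0.85.

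The mitochondrial synthetases, which charge the tRNAs of the organelle and are other genes, were mostly lower in replicate 1. Of 17 measured, 14 passed the test between replicate numbers, 12 had both replicate 1 libraries below the other 4, and the median difference was -0.55, where 48.7% of all genes tested passed and 30% lay below. HARS2 and VARS2 were the 2 above 0, and HARS2 overlaps HARS head to head over 108 bases. Between ROCK2 KD and Scr shRNA their median was -0.0080 and 0 passed the test, with 6 lower in all 3 pairs (beside 12.3% of all genes tested) and 2 higher in all 3 (beside 12.7%). AARS2 had 6.50, 8.14 and 7.35 scaled FPKM in ROCK2 KD and 8.49, 9.94 and 8.68 in Scr shRNA, lower in all 3 pairs (-0.27 ± 0.10, limma, unadjusted p = 0.0368, adjusted p = 0.905). Its ROCK2 KD libraries all lay below those of Scr shRNA, which was so for 0.903% of all genes tested.

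Of 39 further genes of the amino acid response, 34 passed the filter and 0 passed the test between ROCK2 KD and Scr shRNA, with 12 above 0, 22 below and a median log2 fold change of -0.034. LONP1, a mitochondrial protease, was lower in ROCK2 KD in all 3 pairs, with 142, 83.7 and 97.8 scaled FPKM against 158, 93.4 and 134 (-0.25 ± 0.10, limma, unadjusted p = 0.0450, adjusted p = 0.909), and came to -0.15 without replicate 3. CBS had the largest fold change of the 34 (-0.57 ± 0.27, limma, adjusted p = 0.939), and its pairs differed in sign (0.27, -0.66 and -1.31). Between replicate numbers 20 of the 34 were called (58.8%, beside 48.7% of all genes tested). At least 2-fold higher in replicate 1 on the mean of both groups were 8 of them, beside 5.92% of all genes tested. They were the enzymes GPT2, CTH, CBS and ALDH1L2, the transporters SLC6A9 and SLC43A1, the cell death gene BBC3 and the growth factor subunit INHBE. CBS had a difference of 1.78 in ROCK2 KD and 0.52 in Scr shRNA, and SLC43A1 of 1.69 and 0.93. INHBE passed the filter only through the replicate 1 libraries, since Scr shRNA replicate 3 alone of the others reached an FPKM of 1. The 8 genes of eIF2 and its exchange factor eIF2B had a median difference of -0.35, and 4 were called between replicate numbers (50%). Of them 7 were lower in replicate 1, where 5216 of all 10526 genes tested were lower. Both replicate 1 libraries lay below the other 4 for 6 of the 8, beside 30% of all genes tested. EIF2B3 was at least 2-fold lower (-1.32). HERPUD1, which responds to unfolded protein in the endoplasmic reticulum, had a difference of -0.050 and was not called (adjusted p = 0.235).

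Of 16 genes that pass the amino acid signal to mTORC1, 14 were tested, 10 were above 0 in ROCK2 KD and 4 below, and 0 passed the test, with a median of 0.070. SESN1, a sestrin, had 5.31, 6.32 and 5.50 scaled FPKM in ROCK2 KD and 3.57, 4.75 and 4.76 in Scr shRNA. Its ROCK2 KD libraries all lay above those of Scr shRNA, which was so for 1.24% of all genes tested. SESN3, another sestrin, had 4.33, 2.04 and 3.17 in ROCK2 KD and 3.05, 1.91 and 1.85 in Scr shRNA. RRAGD, a Rag GTPase, had 11.5, 4.495 and 8.74 in ROCK2 KD and 10.3, 3.73 and 4.99 in Scr shRNA. All 3 were higher in every pair, with log2 fold changes of 0.33 ± 0.11, 0.34 ± 0.13 and 0.35 ± 0.14 and adjusted p of 0.888 to 0.909 (limma), and RRAGD came to 0.18 without replicate 3. These 3 of 14 compare with 12.7% of all genes tested that were higher in all pairs. DEPDC5 (-0.17 ± 0.11) and NPRL3 (-0.20 ± 0.11) were lower in all 3 pairs, beside 12.3% of all genes tested.

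The difference between replicate numbers was present in both groups. The median difference of replicate 1 for the ATF4 pathway was 0.81 in ROCK2 KD and 0.97 in Scr shRNA, and that of the synthetases 0.016 and 0.020. Without scaling of the libraries the median difference of all genes tested moved to -0.70, and relative to the median gene the ATF4 pathway lay at 0.77 to 0.91 under the scalings tried. The synthetases lay at -0.052 without scaling and at 0.029 to 0.046 with it, so their median had no stable sign. With replicate 1 left out, replicates 2 and 3 differed for 1 of 20 synthetases (VARS) and 3 of 28 ATF4 pathway genes (ATF5, DDIT4 and CHAC1, each higher in replicate 3 than in replicate 2 of both groups), beside 5.4% of all genes tested. Other features moved with replicate 1: all 10 B cell markers were lower in it (median -0.90, 8 of them below all other libraries), and their summed scaled FPKM was 810 and 578 in its ROCK2 KD and Scr shRNA libraries against 1259 to 1508 in the other 4. T cell markers summed to 1.66 and 1.01 scaled FPKM in the replicate 1 libraries against 0.217 to 0.468 in the other 4, and myeloid markers to 0.950 and 0.830 against 0.239 to 0.546, with no single marker above an FPKM of 0.758 in any library. The epithelial, fibroblast or 293T markers summed to 68.9 and 54.4 in the replicate 1 libraries against 113 to 149.7 in the other 4, and of the 2 tested CDH2 was lower in replicate 1 (-1.09, adjusted p = 0.002105) and EPCAM higher (0.69, adjusted p = 0.00352). Across 5 bins of exon length the median difference of all genes ran from -0.10 to 0.064, and across 5 bins of GC content from -0.048 to 0.13. The part of these marker levels in the result was not tested, and culture, library preparation and sequencing of replicate 1 cannot be told apart.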

How the data were processed

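Total RNA of 6 libraries (3 ROCK2 KD, 3 Scr shRNA, grouped by their labels) was sequenced from Nextera libraries. The authors deposited FPKM per gene symbol for each library; the submitters' processing notes name STAR, Cufflinks and hg19, and strand was not given in the sources used here. Read counts were not used here. FPKM hold no depth, so no counting interval is given, and relative depth was read from whole ratios among low values.

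Libraries were put on one scale with trimmed means of their log ratios (trims 0.3 and 0.05) and tested in limma 3.58.1 (R 4.3.3) on log2(scaled FPKM + 1), for genes whose FPKM reached 1 in 3 or more libraries, with the replicate number as a block, a variance trend, and p adjusted by Benjamini-Hochberg at 0.05. Libraries with the same number deviated together (r across genes 0.848, 0.784 and 0.737, against -0.640 to 0.0491 for different numbers), so the numbers pair them. The test was run on simulated data with 200 changed genes in 20 draws, where the recovery of changes of 1 on the log2 scale ran from 45% to 67%. Overlaps came from GENCODE 44 on GRCh37, and promoter sequence from RefSeq (GRCh38.p14). Python 3.11.15, pandas 2.3.3, numpy 2.4.6 and matplotlib 3.10.9 were used. Alternatives were no block, ComBat, the pseudocount, filters, scalings, no trend, and leaving out each replicate number.

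The members, lists and tests were chosen with earlier results of these data known. Named with values were members with an unadjusted p under 0.05, the 4 highest and 3 lowest of each list, the 3 largest rises and falls of one direction in all 3 pairs, the 5 largest differences between replicate numbers of each list, the regulators and marker targets, genes of other lists with an unadjusted p under 0.05, ROCK2 and ROCK1. Other genes are named for completeness.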

Additional observations from a re-analysis of the deposited data

How the results depend on the processing

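The count of 0 genes called between ROCK2 KD and Scr shRNA held without the replicate block (0 called by limma, 30 at an unadjusted p under 0.05), and became 297 with ComBat on the replicate number before limma without the block (160 higher, 137 lower), where the fit does not count the degrees of freedom that ComBat used. With ComBat, CHAC1 (-0.32, limma, adjusted p = 0.0357), AARS2 (-0.21, 0.0371) and SESN1 (0.25, 0.0478) were called. Leaving out the block alone changed no call. Leaving out 1 replicate number gave 0 to 4 genes, with 4 without replicate 3. Between replicate numbers, no scaling gave 8113 genes and 18 synthetases, and leaving out 1 number gave 568 to 4602 genes, 1 to 12 synthetases and 3 to 20 ATF4 pathway genes, with the lowest values without replicate 1. Of 636 log2 fold changes of named genes under an alternative, 593 kept their direction and side of the threshold. EPRS turned to 0.0011 with ComBat and 0.0044 without scaling, and ATF3 to 0.0038 with a pseudocount of 0.1; the cause was not tested. Leaving out 1 number moved ROCK2 between -1.004 and -0.44, and the medians of the mitochondrial synthetases between -0.067 and -0.028, the synthetases between -0.061 and 0.042 and the ATF4 pathway between -0.084 and -0.018. Among genes of one direction in all pairs, it took EIF2AK1 as low as 0.056, TARS 0.069, ALDH18A1 0.088, AARS -0.061, WARS 0.17, LONP1 -0.15 and RRAGD 0.18. It turned the sign of 32 members, whose ranges follow. ASNS ran from -0.0047 to 0.15, ATF3 -0.20 to 0.21, CEBPG -0.17 to 0.0037, DARS -0.0034 to 0.16, DDIT4 -0.31 to 0.11, EIF2AK3 -0.015 to 0.12, EIF2AK4 -0.078 to 0.077, EPRS -0.033 to 0.042, FARSA -0.24 to 0.087, FARSB -0.057 to 0.11 and GARS -0.11 to 0.12. IARS ran from -0.082 to 0.042, KARS -0.062 to 0.037, MARS -0.14 to 0.031, NARS -0.13 to 0.025, PHGDH -0.25 to 0.10, PPP1R15A -0.033 to 0.45, PSAT1 -0.094 to 0.020, PYCR1 -0.30 to 0.30, QARS -0.14 to 0.043, RARS -0.13 to 0.040 and SARS -0.0093 to 0.066. SESN2 ran from -0.021 to 0.10, SHMT2 -0.12 to 0.11, SLC1A5 -0.18 to 0.073, SLC38A1 -0.15 to 0.15, SLC38A2 -0.049 to 0.44, SLC3A2 -0.23 to 0.062, SLC7A11 -0.0087 to 0.44, SLC7A5 -0.10 to 0.019, VARS -0.061 to 0.24 and YARS -0.16 to 0.027. The scalings and omissions used for the replicate 1 difference were chosen after seeing the data.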
